A study of Mus musculus with 59 samples.

Results

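The genes described are 10 mouse genes whose products sense foreign or misplaced nucleic acid or pass that signal on. They are Ddx58 (RIG-I), Ifih1 (MDA5), Dhx58 (LGP2), Mavs, Irf3, Tlr3, Tlr7, Mb21d1 (cGAS), Tmem173 (STING) and Zbp1. They were chosen by name and not by a rule on measured values, but with earlier results of these data known. All 10 were found in each of the 8 gene-level tables used, which list 51810 or 51812 genes. Every level given is a normalised count, that is, a read count per gene divided by a factor that puts the libraries of 1 table on a common scale.

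Cells that meet double-stranded or unusually capped RNA in the cytosol detect it with helicases of the RIG-I family, which signal through Mavs on mitochondria to the transcription factor Irf3 and to type I interferon. Tlr3 and Tlr7 read RNA inside endosomes, cytosolic DNA is read by Mb21d1, which makes a cyclic dinucleotide that activates Tmem173, and Zbp1 binds left-handed nucleic acid and can trigger necroptosis. Transcripts of endogenous retroviruses and other retroelements can serve as ligands for these sensors, and the histone chaperone Daxx, which deposits histone H3.3, is known to take part in the silencing of such elements. Haematopoietic stem and progenitor cells express several of the sensors at steady state.

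The study sorted bone marrow progenitors from C57BL/6 mice and sequenced their RNA in bulk. KLS cells are c-Kit+, lineage-negative and Sca-1+, a gate that holds stem cells and multipotent progenitors, and GMPs are granulocyte-macrophage progenitors. All groups carried 1 copy of a Cre transgene. WT animals were Daxx +/+ (or Pu.1 +/+ in the Pu.1 line), Daxx-KO animals were Daxx F/F, DKO animals were Daxx F/F Pu.1 F/F and Pu.1-KO animals were Pu.1 F/F, where F is a floxed allele that Cre deletes. In the sets at 3 and 24 weeks post-induction (w.p.i.) Cre was Mx1Cre, driven by an interferon-responsive promoter and active in more cells than those of the blood. Cre had been induced with pI:pC, an analogue of double-stranded RNA that is itself a ligand of Tlr3 and Ifih1, in WT as well as knockout animals. A further set of KLS cells and GMPs, Daxx +/+ or Daxx F/F, has no line or time in its labels and is called the untimed set. The methods give 1 range of ages at induction for the mice in general and no age for each group. They also describe KLS cells and GMPs sorted from lethally irradiated recipients of Mx1Cre bone marrow, given together with WT support cells. The untimed set is the 1 that matches this description in cell types and genotypes without a time of its own, but its labels do not say that it came from transplanted animals. Libraries are named by genotype with the number the labels give, or with a letter where only the group is known. In the Pu.1 line and at 24 w.p.i. the group was read from treatment or control endings of column names, not from a label.

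In all, 32 libraries entered tests, namely 4 of untimed KLS cells and 4 of untimed GMPs (2 per genotype), 8 of each cell type at 3 w.p.i. (3 WT, 3 Daxx-KO and 2 DKO each), and 4 of each from the Pu.1 line at 3 w.p.i. (2 WT and 2 Pu.1-KO each). WT libraries at 24 w.p.i. (2 of KLS cells and 2 of GMPs) gave levels only. At 3 w.p.i. the column names carry a number per animal, different for each library of a table and shared by KLS and GMP libraries, so that both cell types came from the same animals. In the untimed set no label ties a library to an animal. The paper states for its genomic data in general that replicates were biological, without naming this set. P-values there measure the spread between these samples, part of which may be technical. In bulk RNA, fewer cells of a type and less RNA per cell cannot be told apart.

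Only 6 of the 10 genes have an entry among the RefSeq promoters of GRCm38.p6, here 250 bases before to 50 bases after the start of the gene (Ddx58, Ifih1, Mavs, Irf3, Tlr3 and Mb21d1). The core of the interferon-stimulated response element, searched on both strands as GAAA and GAAA with any 2 bases between them, is shown because interferon raises several of these genes. It was present in 1131 of 32851 promoters, 3.44%, and in 2 of the 6, Ifih1 and Ddx58. Both stretches are from the gene's own strand, the minus strand, of GRCm38.p6, with the match in capitals, starting 32 bases after the start in Ifih1 (chr2:62646206-62646233) and 2 bases after it in Ddx58 (chr4:40239804-40239833), where the capitals read the motif from the opposite strand.
Ifih1: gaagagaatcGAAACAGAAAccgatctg
Ddx58: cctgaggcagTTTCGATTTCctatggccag
Another motif, GAGGAAGT, the core bound by Pu.1, was found on either strand in 1052 promoters, 3.2%, and in 0 of the 6. A match of letters is a description and not a binding site, and nothing follows from its absence in so short a window.

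Gene reads per library ranged from 3388906 to 22647397 in the untimed set, 10699070 to 19105576 at 3 w.p.i. in both lines and 18184501 to 29335964 at 24 w.p.i. Daxx had normalised counts of 29.7 and 33.9 in untimed Daxx-KO KLS cells against 119 and 138 in WT, and at 3 w.p.i. it was 72.2 to 102 in KLS libraries labelled Daxx-KO or DKO against 423 to 505 in WT and 55.1 to 83.0 against 622 to 688 in GMPs. Spi1, which encodes Pu.1, was not lower in KLS libraries labelled DKO (2993 and 3330, against 1669, 1676 and 2320 in WT). It overlapped between DKO and WT GMPs (2989 to 3846 against 3348 to 4604) and between genotypes in Pu.1-line KLS cells (1307 and 2920 against 2080 and 2764). Only in Pu.1-line GMPs did both Pu.1-KO libraries lie below both WT libraries (2589 to 2707 against 3395 to 3934). Elsewhere the total over the gene does not check the Pu.1 genotype, and these are given as the libraries labelled DKO and Pu.1-KO.

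Some libraries stood apart before any test. The untimed KLS libraries labelled Daxx-KO carried 823 to 876 CPM (reads scaled to a common library total) summed over 7 stem and KLS markers, against 4098 to 4200 in WT. They carried 1760 to 2301 CPM over 7 GMP markers against 118 to 213 and 1688 to 2040 CPM over 8 monocyte and macrophage markers against 38.6 to 76.7, so that their markers go against the KLS label. In the untimed set the repeat columns also conflict with the gene columns. Repeat reads per gene read spanned 0.0634 to 2.19 in KLS cells and 0.136 to 1.10 in GMPs as labelled, but 0.364 to 0.380 and 0.332 to 0.449 when the repeat columns of the genotypes were exchanged. Since Daxx follows the labels of the gene columns, no direction is drawn from the untimed repeat columns. The Pu.1-line KLS library Pu.1-KO b had 0.746 repeat reads per gene read, against 0.258 to 0.368 in the other 3 libraries of its table.

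The level of each gene in WT cells was compared per length of exon, as RPKM, reads divided by the exon length in kb and by the library's gene reads. Tmem173, the adaptor of cytosolic DNA sensing, was the highest of the 10 in every one of the 8 WT sets, with mean RPKM from 13.6 to 26.1 and no overlap with the next gene. Tlr3, the endosomal sensor of double-stranded RNA, was the lowest in all 8, at 0.161 to 2.12. The order between these ends differed between the cell types.

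In WT KLS cells at 3 w.p.i. (n = 3, mean ± SD) the cytosolic RNA sensors came next, Ddx58 at 12.5 ± 1.6 and Ifih1 at 11.5 ± 1.79 RPKM, which overlapped each other. Mavs followed at 8.47 ± 0.961, Mb21d1 at 7.20 ± 1.28, Irf3 at 6.43 ± 0.622, Zbp1 at 5.39 ± 0.99 and Dhx58 at 4.10 ± 0.518, and each of these overlapped its neighbours. Tlr7 at 2.88 ± 0.451 and Tlr3 at 0.516 ± 0.25 lay below all others without overlap. In WT GMPs at 3 w.p.i. the gene next to Tmem173 was Mb21d1, the cytosolic DNA sensor, at 13.2 ± 2.47, followed by Irf3 at 8.17 ± 0.682. Mavs at 6.59 ± 0.525, Ddx58 at 4.96 ± 1.29 and Ifih1 at 4.92 ± 0.552 could not be separated from their neighbours among these 3. Below them lay Dhx58 at 2.19 ± 0.542, Tlr7 at 1.90 ± 0.155, Zbp1 at 1.02 ± 0.233 and Tlr3 at 0.495 ± 0.225. Mb21d1 followed Tmem173 in WT GMPs of all 4 sets, at 9.84 to 13.2, whereas in WT KLS cells of all 4 sets, at 6.42 to 8.58, Ddx58 and Mavs lay above it in mean level. The KLS and GMP tables were normalised separately, so that no test was made between the cell types.

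**Figure D1:**
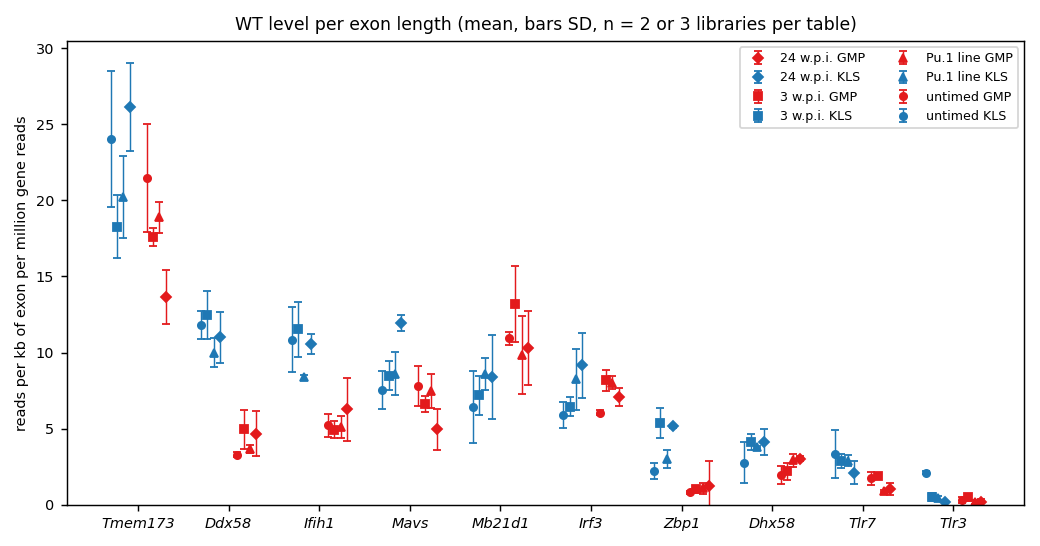
Level of the 10 sensing genes in WT cells. The y axis is RPKM, reads per kb of exon scaled to the library's gene reads, points are means of 2 or 3 libraries with SD bars, blue is KLS cells, red is GMPs and the marker shape gives the set. Tmem173 stands highest in all 8 sets, and Ddx58 and Ifih1 stand higher in KLS cells than in GMPs of the same set.

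At 24 w.p.i. the WT libraries gave the same ends of the order. Ddx58 had normalised counts of 1660 and 2024 in KLS cells and 584 and 900 in GMPs, and Ifih1 had 2165 and 1946 in KLS cells and 895 and 1412 in GMPs. Tlr3 was 17.2 and 31.4 in KLS cells and 0 and 37.4 in GMPs, and Zbp1 was 431 and 434 in KLS cells and 5.46 and 188 in GMPs. The GMP libraries thus differed widely for both of these genes.

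For every comparison below, log2 fold changes are differences of log2(normalised count + 1), which understates changes of low genes, and are given with the standard error (SE). A gene was called when its adjusted p, from limma with Benjamini-Hochberg adjustment over all genes tested, was under 0.05. Genes were tested when their mean over the table was at least 10, which all 10 members passed except Tlr3 in untimed GMPs.

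**Figure D2:**
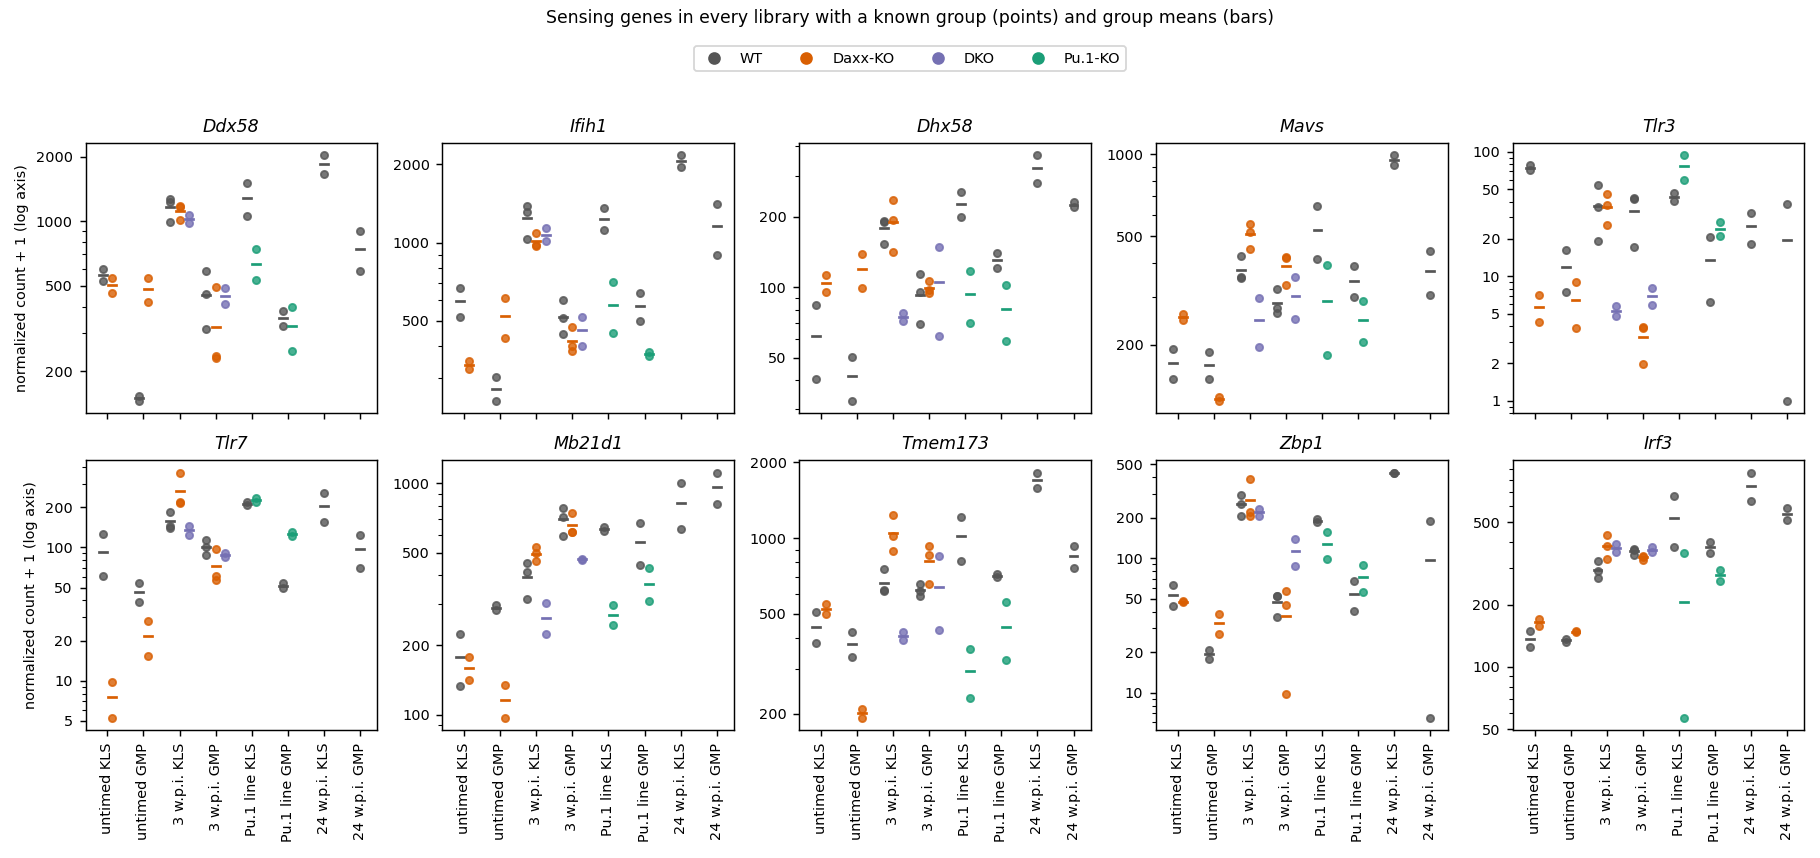
Normalised count plus 1 (log axis) of each sensing gene in every library with a known group. Each panel is 1 gene, the x axis gives the 8 tables, points are libraries, short bars are group means and colours are genotypes. Tables were normalised separately, so heights compare only within a table.

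The first comparison asked how loss of Daxx related to the sensing genes in untimed KLS cells. Ifih1, Tlr3 and Tlr7 were lower in Daxx-KO and no member was called higher, 3 called of 10 where 23.1% of all genes tested were called and 12.5% were called lower. The median log2 fold change was -0.14 over the 10 genes and 0.03 over all genes tested. Of the 10 genes, 6 did not overlap between the groups, against 62.8% of all genes tested.

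Among the cytosolic RNA sensors, Ddx58 had normalised counts of 523 and 596 in WT and 540 and 464 in Daxx-KO KLS cells, overlapping. Ifih1, the sensor of long double-stranded RNA, had 669 and 518 in WT and 325 and 349 in Daxx-KO, with both knockout libraries below both WT libraries, a log2 fold change of -0.80 (SE 0.15, limma adjusted p = 0.00641). Dhx58, a family member without the signalling domain, had 39.6 and 82.7 in WT and 112 and 94.5 in Daxx-KO (0.83, SE 0.37, limma adjusted p = 0.142). Mavs had 148 and 191 in WT and 258 and 245 in Daxx-KO, both knockout libraries higher, without passing the threshold (0.58, SE 0.19, limma adjusted p = 0.0562).

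Both endosomal receptors were low in the knockout libraries. Tlr3 had 70.5 and 77.5 in WT and 3.28 and 6.06 in Daxx-KO (-3.77, SE 0.54, limma adjusted p = 0.0014). Tlr7, a receptor of single-stranded RNA, had 60.2 and 124 in WT and 8.75 and 4.24 in Daxx-KO (-3.61, SE 0.56, limma adjusted p = 0.00227). No knockout library reached the level of any WT library for either gene.

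The DNA branch gave no call in these cells. Mb21d1 was 222 and 133 in WT and 176 and 141 in Daxx-KO, and Tmem173 was 380 and 506 in WT and 498 and 547 in Daxx-KO. Zbp1 was 43.0 and 62.0 against 45.9 and 46.7, and Irf3 was 148 and 124 against 170 and 157. Mb21d1, Tmem173 and Zbp1 overlapped between the genotypes, while both knockout values of Irf3 lay above both WT values.

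The wider pathway was counted over lists of related genes. Ddx60 and Oasl2 stand both among the other sensors and among the interferon-stimulated genes and are counted in each, so these lists are not separate. Of 22 adaptors, kinases and factors downstream of the sensors that were tested, 11 were called higher (10.6% of all genes tested) and 0 lower, among them Unc93b1, the chaperone that brings endosomal receptors to their compartment (1.11), and Ikbke, an Irf3 kinase (0.98). Of 18 other sensors 3 were higher, with Oas1g at 1.37 and Aim2 at 0.79, and 1 was lower, Ddx60 at -0.45. Of 18 interferon-stimulated genes 0 were higher and 4 lower, including Isg20 at -1.37 and Ifit2 at -1.12. Clearance and restraint genes moved both ways (2 higher, such as the lysosomal nuclease Dnase2a at 1.36, and 2 lower, such as Nlrc3 at -1.88, of 12), and of 8 interferon and receptor-signalling genes 1 was higher, Ifnar2 at 0.48.

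Cell markers also differed between the genotypes. Conventional dendritic cell markers summed to 137 to 157 CPM in untimed Daxx-KO KLS cells against 630 to 815 in WT, with 7 of 7 markers detected in each library. Mecom, a stem cell factor, averaged 3.57 CPM against 1719. Plasmacytoid dendritic cell markers were at 565 to 573 against 645 to 737 CPM, with 4 of 7 detected in the knockout library with fewest. B cell markers were at 21.3 to 24.3 against 123 to 260 CPM. The part of these shifts, and of those in stem, GMP and monocyte markers, in the calls was not tested. With 2 libraries a group, the calls of Ifih1, Tlr3 and Tlr7 were each lost without Daxx-KO 1 or without Daxx-KO 2. Leaving out 1 library gave log2 fold changes of -0.99 to -0.62 for Ifih1, -4.13 to -3.41 for Tlr3 and -4.13 to -3.10 for Tlr7.

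In untimed GMPs the RNA helicases and the DNA branch moved in opposite directions. Ddx58, Ifih1 and Dhx58 rose in Daxx-KO GMPs and Mb21d1 and Tmem173 fell, 5 called of the 9 tested, where 33.0% of all genes tested were called (16.6% higher and 16.5% lower). Their median log2 fold change was 0.14, against -0.01 over all genes tested, and the groups did not overlap for any of the 9 genes, against 67.2% of all genes tested.

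Ddx58, the sensor of short RNA with a 5′ triphosphate, had normalised counts of 144 and 153 in WT and 418 and 545 in Daxx-KO GMPs (1.68, SE 0.16, limma adjusted p = 0.000106). Ifih1 had 302 and 245 in WT and 428 and 611 in Daxx-KO (0.91, SE 0.18, limma adjusted p = 0.00505). Dhx58 had 49.4 and 31.6 in WT and 138 and 98.3 in Daxx-KO (1.53, SE 0.32, limma adjusted p = 0.00566). For all 3 helicases both knockout libraries lay above both WT libraries. Their adaptor Mavs, by contrast, had 148 and 187 in WT and 128 and 123 in Daxx-KO (-0.41, SE 0.20, limma adjusted p = 0.149).

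On the DNA side, Mb21d1 had 282 and 296 in WT and 134 and 95.9 in Daxx-KO GMPs (-1.34, SE 0.20, limma adjusted p = 0.00094). Tmem173 had 334 and 420 in WT and 209 and 191 in Daxx-KO (-0.90, SE 0.16, limma adjusted p = 0.00238). The sensor of DNA and its adaptor thus lay lower together in both knockout libraries. Tlr7 had 37.7 and 53.3 in WT and 14.2 and 26.9 in Daxx-KO (-1.15, SE 0.45, limma adjusted p = 0.0812), and Tlr3, not tested, had 6.50 and 15.4 in WT and 8.11 and 2.86 in Daxx-KO. Zbp1 was 16.9 and 19.9 against 26.4 and 37.1 (0.74, limma adjusted p = 0.243), and Irf3 131 and 136 against 148 and 146, neither called.

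The other lists in untimed GMPs were split as well. Of 18 other sensors 8 were higher, led by the oligoadenylate synthetases Oas2 at 3.60 and Oas1g at 3.42, which make the messenger that activates RNase L, and 5 were lower, including Tlr8 at -3.31 and Ifi203 at -1.68. Of 23 downstream genes 7 were higher (Ikbke 1.54, Tradd 0.93) and 3 lower (Ticam2 -4.12, Irf5 -1.60). Of 8 interferon and receptor-signalling genes 5 were higher, among them Irf1 at 0.72, and 0 lower. Of 12 interferon-stimulated genes 4 were higher (Ddx60 2.13, Oasl2 1.37, both also counted among the other sensors) and 3 lower (Mx1 -2.23, Mx2 -2.03). Of 12 clearance genes 2 were higher (Samhd1 0.56, Adar 0.39) and 3 lower (Nlrc3 -1.30, Rnaseh2b -0.73).

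Neutrophil markers summed to 5036 to 7068 CPM in untimed Daxx-KO GMPs against 719 to 996 in WT, with 8 of 8 markers detected, while monocyte and macrophage markers were at 1013 to 1078 against 2068 to 2256 and plasmacytoid dendritic cell markers at 166 to 186 against 449 to 485. The part of these shifts in the calls was not tested. Without WT 2 the calls of Ifih1 and Dhx58 were lost. Leaving out 1 library gave log2 fold changes of 0.65 to 1.17 for Ifih1 and 1.22 to 1.85 for Dhx58.

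The effect of Daxx loss differed between untimed KLS cells and GMPs for 6 of the 9 members testable in both, in a joint limma fit of both tables with a term for the difference, where 21.7% of all genes tested were called. Ddx58 and Ifih1 had the KLS effect below the GMP effect, by -1.83 (SE 0.22, adjusted p = 0.000424) and -1.71 (SE 0.27, adjusted p = 0.00184), and so did Tlr7 (-2.46, SE 0.76, adjusted p = 0.0427). Mavs (0.983, SE 0.27, adjusted p = 0.0267), Mb21d1 (1.22, SE 0.37, adjusted p = 0.0388) and Tmem173 (1.15, SE 0.24, adjusted p = 0.00751) had the KLS effect above the GMP effect. Because the untimed Daxx-KO KLS libraries carried few stem and KLS markers, this is a difference between the gates as labelled. The count was 3 without KLS Daxx-KO 2, without GMP WT 2 or without GMP Daxx-KO 2.

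**Figure D3:**
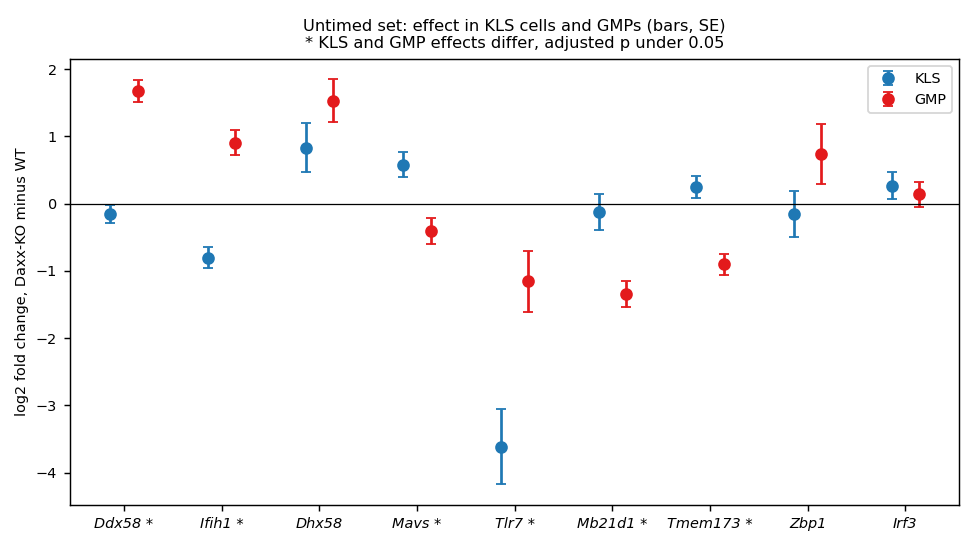
Log2 fold change of Daxx-KO against WT in the untimed set, with SE bars, for the 9 genes tested in both cell types. Blue points are KLS cells, red points are GMPs and an asterisk marks a difference between them with adjusted p under 0.05. Ddx58 lies at -0.16 in KLS cells and at 1.68 in GMPs.

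The repeat columns of the untimed set are given as labelled. In the KLS libraries labelled WT, ERV1, a class of endogenous retrovirus, made up 7.47% and 6.84% of repeat reads, and in those labelled Daxx-KO 1.83% and 1.72% (log2 fold change -1.98, limma adjusted p = 4.05e-08 over families). IAP elements, a family of young and active retroviruses of the mouse, were at 1.32% and 1.64% against 0.76% and 0.744%. In the GMP libraries ERV1 was at 4.81% and 5.07% in those labelled WT and 1.72% and 1.93% in those labelled Daxx-KO. Of 69 families, 6 were called in KLS cells (8.70%) and 3 in GMPs (4.35%), with 1 in KLS cells without WT 2 and 2 without WT 1, 10 without either Daxx-KO library, and 9 and 26 in GMPs without WT 1 and without WT 2. Under the exchange of columns that evens out the ratio of repeat to gene reads, every one of these differences would change sign, so no relation with the sensing genes was drawn.

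At 3 w.p.i., in the set with 3 WT and 3 Daxx-KO libraries, none of the 10 genes was called in KLS cells (limma), where 0.257% of all genes tested were called. Tlr7 and Tmem173, 2 of the 10, had an unadjusted p under 0.05 (11.7% of all genes tested). DESeq2 called 1 member, Tmem173, where it called 342 of 15088 genes in all, and edgeR called 0. For 5 of the 10 every Daxx-KO library lay above every WT library (Mavs, Irf3, Tlr7, Mb21d1 and Tmem173) and for 0 every one lay below, while 18.2% of all genes tested did not overlap in either direction. The median log2 fold change was 0.21, against 0.00 over all genes tested.

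Tmem173 had normalised counts of 750, 616 and 622 in WT 1, WT 2 and the unnumbered WT library, and 1016, 1237 and 887 in Daxx-KO 1 to 3 (0.65, SE 0.16, limma adjusted p = 0.191). Tlr7 had 144, 139 and 184 in WT and 218, 363 and 213 in Daxx-KO (0.73, SE 0.27, limma adjusted p = 0.368), with Daxx-KO 2 well above the rest. The adaptor Mavs had 352, 422 and 350 in WT and 518, 555 and 449 in Daxx-KO (0.44, SE 0.20, limma adjusted p = 0.439). The groups did not overlap for any of these 3 genes. Mb21d1 had 316, 411 and 452 in WT and 528, 496 and 461 in Daxx-KO, and Irf3 had 323, 289 and 267 against 329, 433 and 381, both with narrow gaps between the groups.

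The cytosolic helicases overlapped between the genotypes. Ddx58 had 1228, 1265 and 995 in WT and 1015, 1165 and 1173 in Daxx-KO KLS cells (-0.05, SE 0.14, limma adjusted p = 0.913). Ifih1 had 1313, 1388 and 1030 in WT and 967, 979 and 1086 in Daxx-KO (-0.29, SE 0.15, limma adjusted p = 0.476). Dhx58 ranged from 152 to 191 in WT and from 140 to 234 in Daxx-KO, Tlr3 from 18.4 to 53.0 and from 24.9 to 44.9, and Zbp1 from 205 to 297 and from 205 to 390. In all 5 lists of related genes, 0 were called in either direction. Conventional dendritic cell markers summed to 660 to 765 CPM in Daxx-KO against 371 to 541 in WT, plasmacytoid dendritic cell markers to 664 to 808 against 525 to 582, and B cell markers to 120 to 2312 against 34.3 to 56.8. The part of these shifts in the values of Tlr7, Tmem173 and the rest was not tested.

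Of the retroelements, ERV1 and IAP elements had higher shares in the Daxx-KO KLS libraries, without a call. ERV1 made up 2.71%, 6.91% and 2.74% of repeat reads in Daxx-KO 1, 2 and 3 and 1.91%, 2.16% and 1.91% in WT 1, WT 2 and the unnumbered library (1.07, edgeR adjusted p = 0.358). IAP elements made up 1.5%, 2.17% and 1.83% in the Daxx-KO libraries, against 1.03%, 1.13% and 1.11% (0.76, edgeR adjusted p = 0.0792). For both families every Daxx-KO library lay above every WT library. Other families lay near 0, with L1 elements at -0.08, ERVL at -0.03 and B2 elements at -0.04. Total repeat reads per gene read were 0.286, 0.193 and 0.273 in Daxx-KO 1 to 3, against 0.283, 0.272 and 0.277 in WT. Of 24 families 0 were called by edgeR, 2 had an unadjusted p under 0.05, and IAP was called without Daxx-KO 1 and both without Daxx-KO 2, where ERV1 had 0.45 (edgeR adjusted p = 0.0179). Daxx-KO 2, the library with the highest ERV1 share, also had the highest Dhx58, Mavs, Tlr7, Tmem173, Zbp1 and Irf3 of the 6 libraries, but neither the highest Ddx58 nor the highest Ifih1. The share of all genes that were highest in Daxx-KO 2 was not counted, so nothing is drawn from this. Its normalised counts summed over all genes (13760612) and its gene reads (15336885) were the highest of the 6 as well. It also had 2312 CPM of B cell markers (324 and 120 in Daxx-KO 1 and 3), 1140 CPM of plasma cell markers (298 and 706) and the fewest stem and KLS markers of the 6, 2204 CPM, and the part of these in its values was not tested.

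**Figure D4:**
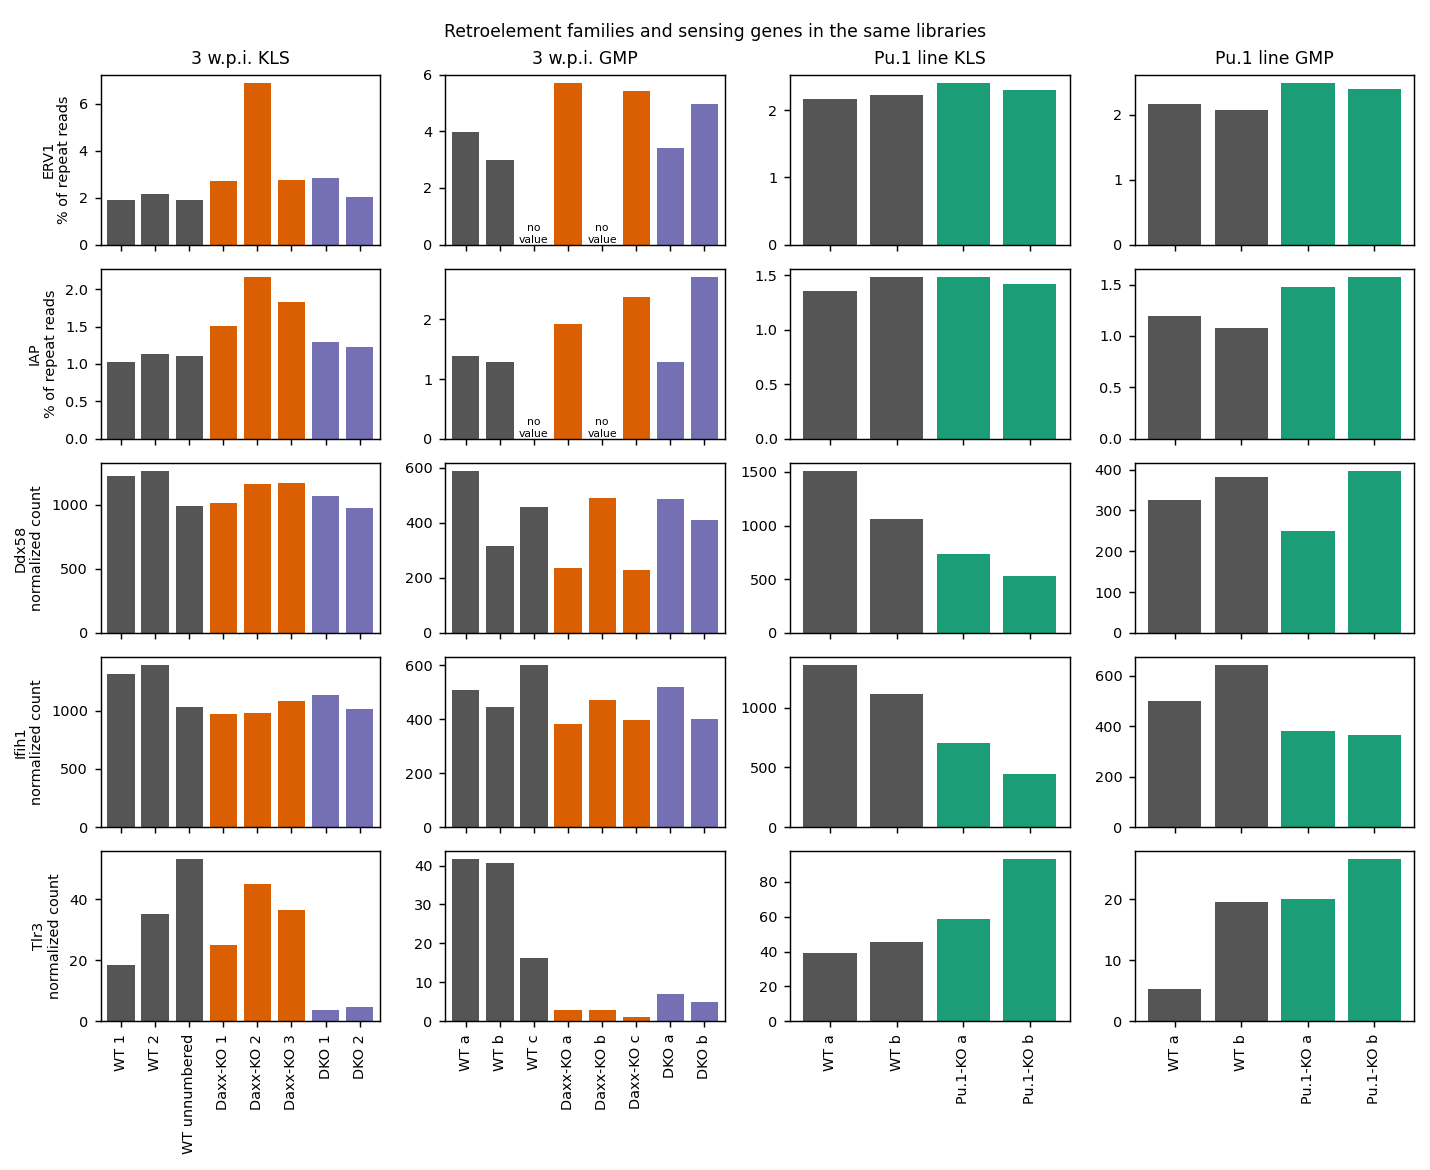
Shares of repeat reads (percent) of ERV1 and IAP elements above normalised counts of Ddx58, Ifih1 and Tlr3 in the same libraries, with bars coloured by genotype (grey WT, orange Daxx-KO, purple DKO, green Pu.1-KO). In KLS cells at 3 w.p.i. ERV1 reaches 6.91% in Daxx-KO 2, where Ddx58 (1165) and Ifih1 (979) lie within or below the WT range, and no repeat value was used for 1 WT and 1 Daxx-KO GMP library.

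The libraries labelled DKO, in which Pu.1 is floxed together with Daxx, differed more from both other groups in KLS cells. Against WT, Dhx58, Tlr3 and Tmem173 fell and no member was called higher, 3 called of 10 where 17.6% of all genes tested were called and 8.40% were called lower. Against Daxx-KO, Dhx58, Mavs, Tlr3, Mb21d1 and Tmem173 fell, 5 called of 10 where 15.4% of all genes tested were called, and 7.22% were called lower. Groups did not overlap for 6 of 10 genes against WT (49.7% of all genes tested) and for 6 of 10 against Daxx-KO (44.6%). These comparisons share the DKO libraries, and the first shares the WT libraries with the comparison of Daxx-KO and WT, so that they are not independent.

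Dhx58 had normalised counts of 76.6 and 70.4 in DKO 1 and DKO 2, below the lowest library of either other group, 140 (-1.25, SE 0.29, limma adjusted p = 0.0187 against WT, and -1.32, SE 0.29, limma adjusted p = 0.015 against Daxx-KO). Tlr3 had 3.83 and 4.82 in DKO, below 18.4 in the lowest other library (-2.66, SE 0.65, limma adjusted p = 0.0211 against WT, and -2.74, SE 0.65, limma adjusted p = 0.0191 against Daxx-KO). Tmem173 had 394 and 422 in DKO (-0.69, SE 0.18, limma adjusted p = 0.0283 against WT, and -1.34, SE 0.18, limma adjusted p = 0.00128 against Daxx-KO). These 3 genes had both DKO libraries below all 6 others.

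Mavs had 194 and 296 in DKO (-0.64, limma adjusted p = 0.0772 against WT, and -1.07, SE 0.22, limma adjusted p = 0.0112 against Daxx-KO). Mb21d1 had 302 and 222 in DKO (-0.59, limma adjusted p = 0.0946 against WT, and -0.93, SE 0.22, limma adjusted p = 0.019 against Daxx-KO). Both genes thus passed the threshold only against Daxx-KO, with both DKO libraries below the lowest WT library too, and the difference between these contrasts is that of Daxx-KO and WT, which was not called. Tlr7 had 144 and 122 in DKO, below every Daxx-KO library and overlapping WT (-0.95, SE 0.30, limma adjusted p = 0.0599 against Daxx-KO).

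Ddx58 had 1071 and 976 in DKO and Ifih1 had 1133 and 1012, near or within the ranges of the other groups (limma adjusted p = 0.472 and 0.425 against WT). Zbp1 at 205 and 233 also overlapped the WT range. Irf3, at 392 and 359, was higher than in every WT library (0.36, limma adjusted p = 0.237). The helicases that start the cytosolic RNA pathway were therefore not called in any of the 3 comparisons of KLS cells at 3 w.p.i., while Dhx58 was called in both that involve DKO.

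In the lists of related genes the calls against WT were mostly lower for other sensors and for interferon signalling and response and mixed for the rest, where 9.24% of all genes tested were called higher. Against WT, 9 of 19 other sensors were lower, led by Oas2 at -3.99 and Oas1g at -3.33, and 1 was higher, Ddx41 at 0.71, while 5 of 19 interferon-stimulated genes were lower and 0 higher (Rtp4 -1.55, Oasl2 -1.0). Of 8 interferon and receptor-signalling genes, 2 were lower, the receptor subunit Ifnar2 at -1.31 and Irf9, a part of the factor that binds response elements, at -1.12. Of 23 downstream genes 1 was higher (Traf3 0.59) and 2 lower (Irf5 -1.62, Mlkl -1.10), and of 12 clearance genes 2 were higher (Rnaseh2c 1.20, Rnf125 0.91) and 1 lower (Samhd1 -1.20). Against Daxx-KO, 7 of 19 other sensors, 4 of 23 downstream genes, 1 of 12 clearance genes, 3 of 8 interferon genes and 2 of 19 interferon-stimulated genes were lower, and 3 downstream and 2 clearance genes were higher (8.17% of all genes tested).

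The DKO KLS libraries also carried neutrophil markers at 9952 to 11135 CPM, against 38.5 to 2043 in WT and 70.7 to 436 in Daxx-KO, with 8 of 8 markers detected. GMP markers were at 7190 to 8212 against 355 to 3309 CPM in WT and stem and KLS markers at 1472 to 2032 against 3652 to 5118. Conventional dendritic cell markers were at 222 to 266 against 371 to 541 CPM and plasmacytoid dendritic cell markers at 305 to 388 against 525 to 582. The part of these shifts in the calls was not tested. Against WT, 0 members were called without WT 2 or without DKO 1, and 1 without WT 1. Against Daxx-KO, 3 were called without Daxx-KO 3 or without DKO 2, and 2 without DKO 1. ERV1 made up 2.85% and 2.05% and IAP elements 1.30% and 1.22% of repeat reads in the DKO KLS libraries, and of 24 families 0 were called against WT (edgeR, 2 with an unadjusted p under 0.05).

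In GMPs at 3 w.p.i. no member was called in any of the 3 comparisons by limma. All genes tested were called at 0.0948% for Daxx-KO against WT, 0.292% for DKO against WT and 0.0583% for DKO against Daxx-KO. An unadjusted p under 0.05 was found for 1, 2 and 2 members in that order (3.16%, 7.01% and 8.05% of all genes tested), and the groups did not overlap for 3, 3 and 4 members (8.10%, 18.6% and 20.7%). DESeq2 called 1 member for Daxx-KO against WT, Tlr3, where it called 79 of 13700 genes in all, and edgeR called 0.

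Tlr3 had normalised counts of 41.6, 40.6 and 16.3 in WT GMPs and 2.93, 2.85 and 0.988 in Daxx-KO GMPs, with every knockout library below every WT library (-3.33, SE 0.66, limma adjusted p = 0.264, unadjusted p = 0.000563). In DKO GMPs it had 7.10 and 4.93, also below every WT library (-2.17, SE 0.74, limma adjusted p = 0.455). DESeq2 gave -3.86 for Daxx-KO with adjusted p = 0.00261, and edgeR -3.78 with adjusted p = 0.177. The knockout values are a few reads each, at the low end of what these depths measure.

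The cytosolic helicases varied widely within the genotypes. Ddx58 had 588, 315 and 458 in WT, 235, 491 and 230 in Daxx-KO and 485 and 410 in DKO GMPs. Ifih1 had 510, 444 and 601 in WT, 381, 471 and 399 in Daxx-KO and 518 and 400 in DKO. Both genes overlapped between all groups. Neutrophil markers summed to 21822, 4514 and 17013 CPM in WT a to c, 3083, 22024 and 3390 CPM in Daxx-KO a to c and 12855 and 8714 CPM in DKO a and b. The 3 libraries with the lowest sums, WT b and Daxx-KO a and c, were also the 3 with the lowest Ddx58, and the part of these markers in it was not tested. Daxx-KO b was the highest of the Daxx-KO libraries in both genes, and Mavs was lowest there, with 414, 331 and 417 in Daxx-KO a to c against 272, 261 and 318 in WT, every Daxx-KO library above every WT library (0.44, SE 0.21, limma adjusted p = 1.00).

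On the DNA side Tmem173 had WT values of 614, 590 and 656, Daxx-KO values of 854, 653 and 927 and DKO values of 431 and 848. Mb21d1 had WT values of 716, 783 and 590, Daxx-KO values of 615, 739 and 612 and DKO values of 472 and 466, the DKO libraries being below all others (-0.56, limma adjusted p = 0.479 against WT). Zbp1 had WT values of 35.3, 51.2 and 51.1, Daxx-KO values of 8.79, 56.1 and 43.5 and DKO values of 137 and 85.8, which again lay apart from the other 6 (1.24, limma adjusted p = 0.875 against WT). Irf3 ranged from 329 to 376 and Tlr7 from 56.3 to 112 over all 8 libraries. The 5 lists of related genes gave 0 calls by limma in all 3 comparisons, and B cell markers summed to 58.7 to 713 CPM in Daxx-KO against 14.8 to 50 in WT.

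ERV1 made up 5.73% and 5.43% of repeat reads in Daxx-KO a and c, against 3.98% and 3.00% in WT a and b and 3.42% and 4.97% in DKO a and b. IAP elements made up 1.92% and 2.37% in these Daxx-KO libraries, against 1.38% and 1.28% in WT and 1.29% and 2.72% in DKO. Both families were higher in the Daxx-KO than in the WT libraries used, and of 25 families 0 were called for Daxx-KO or for DKO against WT (edgeR, 2 with an unadjusted p under 0.05 in each). The Daxx-KO libraries with a repeat value were those with the lower Ddx58, 235 and 230, and with the lower neutrophil markers, 3083 and 3390 CPM.

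The effects at 3 w.p.i. were also compared directly between the cell types. The fit took KLS and GMP libraries as independent although they came from the same animals, and with the animal as a block 0 members were called too, here and in the Pu.1 line. For Daxx-KO against WT, 0 of 10 members were called by limma, where 0.0149% of all genes tested were called. The largest difference was that of Tlr3, 3.41 (SE 0.82, limma unadjusted p = 0.000837, adjusted p = 1.00), whose values overlapped between genotypes in KLS cells and did not in GMPs. For DKO against WT 0 were called, where 0.913% of all genes tested were.

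The Pu.1 line tested deletion of Pu.1 without that of Daxx. In KLS cells no member was called by limma, where 0.810% of all genes tested were called, while 4 had an unadjusted p under 0.05 (25.9% of all genes tested). Both edgeR and DESeq2 called 1 member, Tmem173, where they called 1920 of 23459 and 1239 of 18911 genes in all. For 8 of the 10 genes both libraries labelled Pu.1-KO lay below both WT libraries, and for 1, Tlr3, both lay above, where 65.6% of all genes tested did not overlap. The median log2 fold change was -1.07, against 0.12 over all genes tested. Daxx, which this line does not delete, had -1.01 in these cells, also without overlap. Normalised counts summed over all genes to 15253587 and 11057943 in the Pu.1-KO libraries, against 20074902 and 16122299 in WT. The part of a shift shared by many genes in the values of the members was not tested. The medians of the 5 lists of related genes lay between -0.91 and -1.10, and 1 of their genes was called, Oas1a at -2.49.

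Tmem173 had normalised counts of 1217 and 810 in WT and 361 and 231 in the libraries labelled Pu.1-KO (-1.78, SE 0.57, limma adjusted p = 0.0665, edgeR adjusted p = 0.034 and DESeq2 adjusted p = 0.0341). Irf3 had 667 and 378 in WT and 356 and 55.7 in Pu.1-KO a and b (-1.82, SE 0.59, limma adjusted p = 0.0676). Only Pu.1-KO b, which stood apart in its repeat reads, was far below WT for Irf3. Without that library Irf3 had -0.50 (limma adjusted p = 0.793) and Tmem173 -1.46 (limma adjusted p = 0.355), so the change in Irf3 rests on 1 library.

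The cytosolic helicases had lower values in both libraries labelled Pu.1-KO, without a call. Ddx58 had 1507 and 1059 in WT and 738 and 529 in Pu.1-KO (-1.02, limma adjusted p = 0.238), Ifih1 had 1355 and 1117 against 705 and 447 (-1.13, limma adjusted p = 0.194), and Dhx58 had 253 and 199 against 116 and 69.1 (-1.32, limma adjusted p = 0.179). Mb21d1 had 648 and 621 against 296 and 244 (-1.24, limma adjusted p = 0.161), and Mavs 645 and 411 against 392 and 182 (-0.94). Tlr7 was level, at 217 and 208 against 233 and 216, and Tlr3 had 39.3 and 45.6 in WT against 58.5 and 92.8 in Pu.1-KO (0.79, limma adjusted p = 0.486). None of these passed the threshold with 2 libraries a group. Without Pu.1-KO a, which leaves 1 library in that group, calls rose both among the members and over all genes. Neutrophil markers summed to 5381 to 8067 CPM against 1430 to 2088 in WT, conventional dendritic cell markers to 255 to 318 against 473 to 493, and stem and KLS markers to 1077 to 1823 against 2687 to 2760, and the part of these shifts was not tested. ERV1 (2.41% and 2.30% against 2.17% and 2.22%) and IAP elements (1.49% and 1.42% against 1.36% and 1.49%) were not called, nor was any of 26 families (edgeR, 2 with an unadjusted p under 0.05), though 7 were called without Pu.1-KO a and 1 without WT b.

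In Pu.1-line GMPs Tlr7 rose and Tmem173 fell in the libraries labelled Pu.1-KO, 2 called of 10 where 17.6% of all genes tested were called (9.15% higher and 8.49% lower). For 8 of the 10 the groups did not overlap, as for 65.0% of all genes tested. Tlr7 had normalised counts of 52.9 and 48.3 in WT and 130 and 121 in Pu.1-KO (1.29, SE 0.43, limma adjusted p = 0.0234, edgeR adjusted p = 0.0359 and DESeq2 adjusted p = 0.0219). Tmem173 had 715 and 696 in WT and 325 and 555 in Pu.1-KO (-0.73, SE 0.25, limma adjusted p = 0.0306), which edgeR (adjusted p = 0.0669) and DESeq2 (adjusted p = 0.0742) did not call. The groups did not overlap for either gene.

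Ifih1 had 501 and 641 in WT and 379 and 364 in Pu.1-KO GMPs (-0.61, limma adjusted p = 0.0852), and Ddx58 had 325 and 381 against 249 and 396, overlapping. Dhx58 had 140 and 120 against 57.7 and 101, Mavs 297 and 386 against 203 and 288, Mb21d1 441 and 671 against 308 and 427, and Irf3 353 and 400 against 260 and 293. These last 4 genes were lower in both Pu.1-KO libraries without a call, while Tlr3 (5.29 and 19.6 against 20.0 and 26.5) and Zbp1 (39.2 and 66.6 against 55.4 and 88.2) were not lower. Of 20 other sensors 3 were higher (Tlr13 2.49, Ifi204 1.21) and 3 lower (Oas1a -1.97, Oasl1 -1.24), of 23 downstream genes 1 was higher (Irf5 0.87) and 4 lower (Ripk3 -0.93, Trim25 -0.83), of 12 clearance genes 0 were higher and 3 lower (Dnase2a -1.53, Rnaseh2a -0.79), and 0 of 8 interferon and 0 of 17 interferon-stimulated genes were called.

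Here the repeat families did give calls, 6 of 25 by edgeR (24.0%), 4 higher and 2 lower. ERVK elements other than IAP (0.28, edgeR adjusted p = 0.00583), IAP elements (0.28, edgeR adjusted p = 0.0104; 1.47% and 1.57% of repeat reads against 1.20% and 1.08%) and satellites (0.28, edgeR adjusted p = 0.00883) were higher. L1 elements (-0.34, edgeR adjusted p = 0.000465) and B4 elements (-0.21, edgeR adjusted p = 0.0171) were lower. No family was called without WT b. Neutrophil markers summed to 12397 to 15767 CPM in these Pu.1-KO GMPs against 2040 to 2664 in WT, B cell markers to 217 to 466 against 103 in both WT libraries, and GMP markers to 10130 to 14520 against 19789 to 20565. The part of these shifts in the calls was not tested. The calls of Tlr7 and Tmem173 were lost without WT a or without WT b. Leaving out 1 library gave log2 fold changes of 1.23 to 1.36 for Tlr7 and -1.12 to -0.35 for Tmem173. Without Pu.1-KO b, which leaves 1 library in that group, calls rose both among the members and over all genes. The Pu.1-KO effect did not differ between KLS cells and GMPs by a call for any member (0 of 10 by limma, where 0.0104% of all genes tested were called). This did not hold in every fit that left out 1 library.

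**Figure D5:**
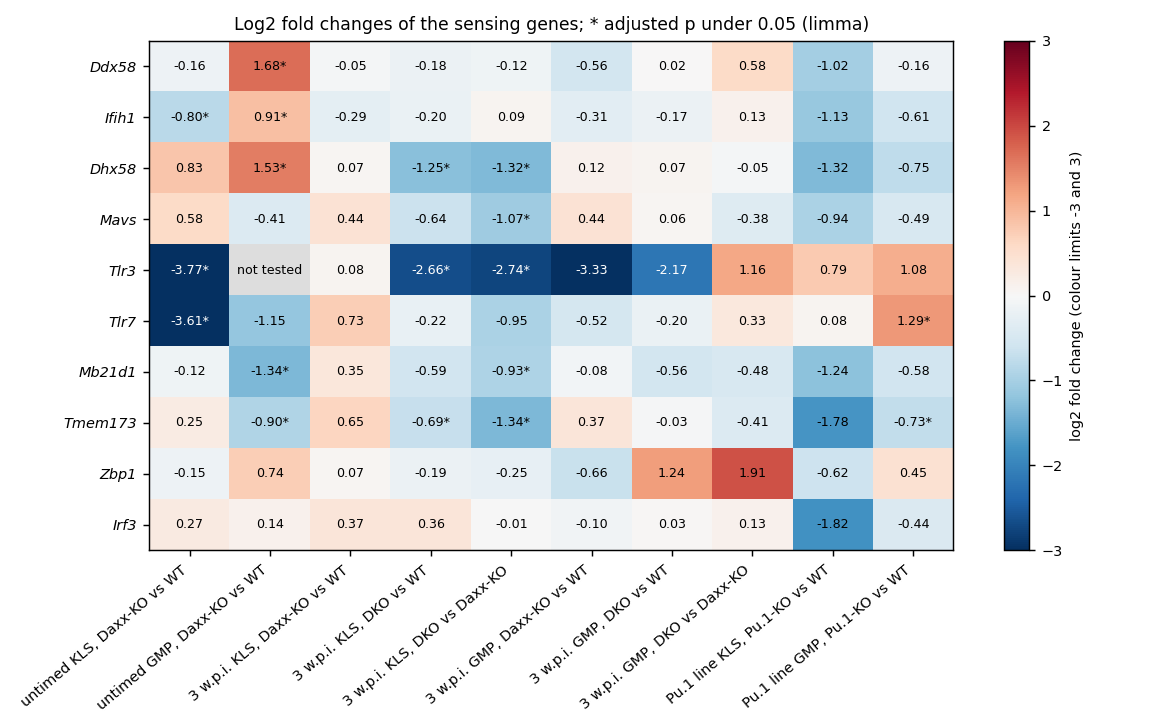
Log2 fold changes of the 10 sensing genes (y axis) in the 10 comparisons (x axis), on the log2(normalised count + 1) scale, with red higher and blue lower in the first-named group and an asterisk for a limma adjusted p under 0.05. Asterisks fall in the untimed set, in KLS cells labelled DKO and in 2 genes of Pu.1-line GMPs, and in no comparison of Daxx-KO with WT at 3 w.p.i.

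Side by side, Ddx58 and Ifih1 were called in untimed GMPs, Ifih1 in untimed KLS cells, and neither in the other 8 comparisons. Tmem173 was called lower in 4 of the 10 comparisons, and Zbp1 and Irf3 in none. Its calls in DKO KLS cells, against WT and against Daxx-KO, share the DKO libraries, and edgeR and DESeq2 did not call it in Pu.1-line GMPs. Of all genes tested, 16.5% were called lower in untimed GMPs and 8.49% in Pu.1-line GMPs. In DKO KLS cells 8.40% were called lower against WT and 7.22% against Daxx-KO. Across the 32 tested libraries, the genes whose levels were most like that of Ddx58 among 8877 well-expressed genes were Pnpla8 (Pearson r = 0.841), Stat3 (0.837), Efcab14 (0.834) and Fhl3 (0.818), with each gene centred on the mean of its table, and for Ifih1 they were Dennd4a (0.877), Ptgs1 (0.853), Smarca2 (0.838), Pnpla8 (0.838) and Dennd2d (0.832). Among the members with enough reads in every table, Mavs and Tmem173 were most alike (0.893), followed by Ddx58 and Ifih1 (0.744) and by Mb21d1 and Tmem173 (0.725). These values describe libraries that share group, cell type and depth and carry no test.

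Some of the genes overlap others on the GENCODE annotation of mm10, and whether the counting used the strand is not stated. Dhx58 (chr11:100694884-100704271, minus strand) overlaps Dhx58os on the opposite strand, Irf3 (chr7:44997648-45002848, plus strand) overlaps Bcl2l12, Mb21d1 (chr9:78430526-78443237, minus strand) overlaps Gm8093, and Tlr3 (chr8:45395665-45411080, minus strand) overlaps Gm45542. Their reads cannot be told from those of the partner if strand was not used. Ddx58 (chr4:40203773-40239828), Ifih1 (chr2:62595798-62646255), Zbp1 (chr2:173206612-173218923) and Tlr7 (chrX:167304929-167330558) on the minus strand, and Mavs (chr2:131234063-131248025) on the plus strand, have no such partner.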

How the data were processed

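The study measured RNA of sorted mouse bone marrow progenitors in bulk. According to the submitters' processing notes, reads were demultiplexed with CASAVA 1.8.4, trimmed with cutadapt 1.13, aligned to mm10 with STAR 2.5.3 and normalised with DESeq2 1.16.1. The authors deposited gene tables of read counts divided by size factors (a signal normalised per table), a repeat table of that kind for each untimed cell type, and raw repeat counts for the other sets. Every non-zero normalised value was a whole multiple of the value of 1 read within 0.01, 100% of them, so that reads per gene were recovered. The labels name the same Trizol extraction and Ovation SoLo kit for every set, whereas the methods give these for cells of transplanted animals and another kit for the others.

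The 10 genes and the 5 lists of related genes (84 genes) were chosen with earlier results of these data known. Groups came from the labels of the 59 samples. Of 111 columns of values per sample 73 were used; 38 were not, because their names match no single sample or group, so that the Daxx-KO and DKO groups at 24 w.p.i., the MPP3 and MPP4 cells and the LT-HSCs were not analysed here.

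Tests used limma 3.58.1 (trend) in R 4.3.3 on log2(value + 1) of genes with a mean of at least 10, all libraries of a table in 1 fit, two-sided, with Benjamini-Hochberg adjustment over all genes tested. Repeat families with raw counts used edgeR 4.0.16 (quasi-likelihood, trimmed mean of M-values). Each member was named with its values, each list by its counts and the 2 called genes with the largest rise and fall, and for Ddx58 and Ifih1 the 5 most like genes among those with a mean of at least 50 in every table. Some genes that these rules name are not reported here. Alternatives were another pseudocount (4), no filter, another normalisation, edgeR and DESeq2 1.42.0 on recovered reads, a replicate block and leaving out each library. Scripts were tested on simulated data with 200 changed genes. Precision is limited by 2 or 3 libraries a group. Promoters were those of RefSeq (GRCm38.p6), and exon lengths those of GENCODE on mm10.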

Additional observations from a re-analysis of the deposited data

Results flagged for a closer look

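The effect of Daxx loss in untimed KLS cells was set against that in untimed GMPs because the genes of the RNA and DNA branches could differ between the cell types. Of the 9 members testable in both, 6 passed the test of the difference itself (limma, KLS effect minus GMP effect, log2), where 21.7% of all genes tested were called. Ddx58 differed by -1.83, Ifih1 by -1.71 and Tlr7 by -2.46, with the KLS effect the lower. Mavs differed by 0.983, Mb21d1 by 1.22 and Tmem173 by 1.15, with the KLS effect the higher. All 6 kept their sign when any 1 library was left out, with ranges of -2.03 to -1.64 for Ddx58, -1.97 to -1.46 for Ifih1, -2.97 to -1.94 for Tlr7, 0.80 to 1.17 for Mavs, 0.85 to 1.59 for Mb21d1 and 0.95 to 1.36 for Tmem173. For Ifih1 and Mavs the genotypes did not overlap in either cell type and differed in opposite directions. Leaving out 1 library could therefore not reverse the sign for these genes. Over 9 alternatives (pseudocount 4 and leaving out each library), Ddx58, Ifih1 and Tmem173 kept the call in all 9, while Mavs lost it in 5, Mb21d1 in 6 and Tlr7 in 5. The untimed Daxx-KO KLS libraries had few reads of stem and KLS markers, and the part of that in these differences was not tested.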

How the results depend on the processing

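Of 264 alternative values of called members and of called differences between KLS cells and GMPs, 210 kept their direction and their call. Another 54 kept their direction and lost the call, and 0 changed direction. The groups did not overlap for any called member, so leaving out 1 library could not reverse the direction of its fold change. The same holds for the differences of Ifih1 and Mavs between untimed KLS cells and GMPs. Some of the libraries left out also lay outside the comparison. For Daxx-KO against WT at 3 w.p.i., DESeq2 called 1 member in KLS cells and 1 in GMPs where limma called 0. It called 342 of 15088 and 79 of 13700 genes in all. In the Pu.1 line edgeR and DESeq2 called 1 and 1 member in KLS cells (limma 0) and 1 and 1 in GMPs (limma 2). Over all genes they called 1920 of 23459 and 1239 of 18911 in these KLS cells. In these GMPs they called 3034 of 19337 and 3200 of 15213. With repeat families scaled to the library total, 1 family was called in untimed GMPs, 1 in KLS cells for Daxx-KO against WT at 3 w.p.i., 2 in Pu.1-line KLS cells and 10 in Pu.1-line GMPs. For these values the cause was not tested.

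Leaving out 1 library gave 0 to 5 called members in untimed KLS cells, 3 to 6 in untimed GMPs, 0 to 3 for DKO against WT and 2 to 5 for DKO against Daxx-KO in KLS cells at 3 w.p.i., 0 to 6 in Pu.1-line KLS cells and 0 to 6 in Pu.1-line GMPs, and 0 in the comparisons of Daxx-KO and WT and of DKO in GMPs at 3 w.p.i. Families called ranged from 1 to 10 in untimed KLS cells, 2 to 26 in untimed GMPs, 0 to 2 for Daxx-KO KLS cells, 0 to 7 in Pu.1-line KLS cells and 0 to 5 in Pu.1-line GMPs. Differences of effect between KLS cells and GMPs ranged from 3 to 6 members in the untimed set and from 0 to 2 in the Pu.1 line. Where 1 library was left in a group, it was assumed to vary like the others. The counts over all genes in these fits moved too and are given below.

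Samples of the same replicate number share only a number. The correlation of their deviations was -0.0748 in untimed KLS cells, -0.134 in untimed GMPs and -0.251 to 0.204 in KLS cells at 3 w.p.i. With a replicate block, which leaves out the unnumbered WT library, 0 members were called for DKO against WT in KLS cells at 3 w.p.i. (2105 genes in all, against 2681), 81 genes were called for Daxx-KO against WT (against 39), and 5 members in untimed GMPs. Crossing the numbers of untimed GMPs, chosen after seeing the data, gave 6. KLS and GMP libraries at 3 w.p.i. and in the Pu.1 line share animal numbers, and with the animal as a block, chosen after seeing the data, 0 members differed between the cell types in all 3 fits, as without it. Between genotypes, no paired analysis was possible in GMPs at 3 w.p.i. or in the Pu.1 line because no numbers pair their libraries.

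Counts over all genes moved by more than 1.5 times in several settings. Without a filter 1751 genes were called in untimed KLS cells (3118 with it). DESeq2 called 342 in KLS cells for Daxx-KO against WT at 3 w.p.i. (39 by limma), 79 for Daxx-KO GMPs (13), 263 for DKO GMPs against WT (40) and 280 for DKO GMPs against Daxx-KO (8, with 16 at pseudocount 4, 13 without a filter, 18 after rescaling and 20 by edgeR). In Pu.1-line KLS cells the 190 calls (110 higher and 80 lower) became 753 after rescaling (560 higher and 193 lower), 1920 by edgeR and 1239 by DESeq2. Leaving out 1 library gave 419 to 3290 genes in untimed KLS cells, 2162 to 4448 in untimed GMPs (4209 with all), 8 to 137 for Daxx-KO, 574 to 3195 for DKO and 672 to 2481 for DKO against Daxx-KO (2340 with all) in KLS cells at 3 w.p.i., 4 to 16, 2 to 90 and 0 to 71 for these in GMPs, 13 to 6905 in Pu.1-line KLS cells and 151 to 8163 in Pu.1-line GMPs (3412 with all). DESeq2 gave no adjusted p for Tlr3 in Pu.1-line GMPs. Planned fits for 24 w.p.i., MPP3, MPP4 and LT-HSC libraries were not run. Depth limits Tlr3 and, in GMPs, Zbp1, which rest on few reads.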
